A study of Mus musculus with 24 samples.

Results

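The cytosolic ribosome is built from a large and a small subunit, and the 85 genes described here encode its proteins. They are the genes of the deposited count table whose symbols follow the Rpl, Rps, Rplp and Rpsa naming patterns, without names that mark pseudogenes, and they are 85 of 53946 genes in the table. Of these, 50 encode large subunit proteins, 32 encode small subunit proteins and 3 (Rplp0, Rplp1 and Rplp2) encode the P stalk, the flexible arm of the large subunit that recruits translation factors. One of them, Rpl10a, encodes the protein that carried the purification tag in this study.

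The study used translating ribosome affinity purification (TRAP), in which ribosomes carrying a GFP-tagged L10a protein are pulled down with an anti-GFP antibody and the RNA bound to them is sequenced. The tagged protein was directed to cells of the Fgf20-Cre lineage in mouse embryos on a mixed C57BL/6J x 129X1/SvJ background, and the ventral otocyst, the part of the embryonic inner ear that holds the cochlea, was dissected at embryonic day 14.5. Fgf20 encodes a secreted fibroblast growth factor of the developing cochlea. The tissue was collected in 2 experiments, and each library was made from polyA RNA of 3 to 7 pooled embryos of one genotype.

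There were 8 TRAP libraries from Fgf20-/- embryos (TRAP mut), 8 TRAP libraries from Fgf20+/- embryos (TRAP het), 4 pre-TRAP libraries from Fgf20-/- embryos (pre-TRAP mut) and 4 pre-TRAP libraries from Fgf20+/- embryos (pre-TRAP het). Each of these groups was divided evenly between the experiments. The Fgf20+/- embryos that served as controls also lacked 1 working Fgf20 allele, so no wild-type embryo entered any comparison. The labels call the remaining libraries pre-TRAP without saying how their RNA was kept apart from the pull-down, and they do not say whether a TRAP library and a pre-TRAP library came from the same homogenate. They also do not say that the pools came from separate litters, so every p-value below measures the spread between these pools.

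Ribosomal proteins are made in near-equal numbers, and their mRNAs are among the most abundant of a growing cell. Most of these mRNAs begin with a C followed by a run of pyrimidines, the 5′ terminal oligopyrimidine (5′ TOP) motif, through which the mTOR kinase and the RNA-binding protein Larp1 set how many of them are on ribosomes and how many are stored. TRAP counts the mRNAs bound to tagged ribosomes, so it reads ribosome association and abundance together.

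Start-site sequence was taken from RefSeq (mouse build GRCm38.p6) for the 63 of 85 genes with an entry. A tract was defined as a C followed by at least 4 more C or T letters, read on the transcript strand in 15 bases on each side of the annotated start. Such a C lay on an annotated start in 14 of 63 ribosomal protein genes (22.2%), against 813 of 27025 genes in the RefSeq table (3.01%). Within the window of 30 bases it was present in 43 of 63 (68.3%), against 40.3% of all genes. The sequences below show members whose levels are described in this section: Rpsa and Rplp0 with no tract in the window, Rps12, Rpl10a, Rps6 and Rpl38 with one at different distances from the annotated start, and Rps27l, which encodes a paralog. The letters run 5′ to 3′ along the transcript, capitals mark the longest tract in the window, and the sixteenth letter is the annotated start. A shorter tract stays in lower case, as does the one just after the annotated start in Rps27l. A match describes these letters and no more.
Rpsa: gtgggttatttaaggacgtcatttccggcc
Rplp0: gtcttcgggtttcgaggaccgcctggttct
Rps12: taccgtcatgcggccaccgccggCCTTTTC
Rpl10a: gtggcgCCCCCCCagcggccgcaaactgca
Rps6: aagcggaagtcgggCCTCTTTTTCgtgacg
Rpl38: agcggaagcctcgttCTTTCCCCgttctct
Rps27l: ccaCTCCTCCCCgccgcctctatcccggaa
These windows are chr9:120127751-120127780 (plus strand) for Rpsa, chr5:115559452-115559481 (plus) for Rplp0, chr10:23787195-23787224 (minus) for Rps12 and chr17:28328456-28328485 (plus) for Rpl10a. The others are chr4:86857353-86857382 (minus) for Rps6, chr11:114668565-114668594 (plus) for Rpl38 and chr9:66946071-66946100 (plus) for Rps27l. In genes with several annotated starts, any of them counted. The tract is 8 letters long and begins at the annotated start in Rpl38, and it is 10 letters long and begins 1 base before the start in Rps6.

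Library totals ran from 30745166 to 50266312 counts in TRAP and from 32185336 to 53374796 counts in pre-TRAP. Fgf20 averaged 2.24 ± 0.729 CPM (normalised counts scaled to a fixed library total) in TRAP mut and 4.19 ± 0.979 CPM in TRAP het (SD, n = 8 each), and 0.236 ± 0.0690 CPM in pre-TRAP mut and 0.886 ± 0.584 CPM in pre-TRAP het (SD, n = 4 each). The 2 kinds of library differed in cell-type markers: the summed level of otic epithelium markers was 353 to 535 CPM in TRAP and 365 to 814 CPM in pre-TRAP, of which Oc90 alone, a marker of the non-sensory roof, made up 144 ± 54.5 CPM in TRAP and 426 ± 165 CPM in pre-TRAP (SD). That of neuronal markers was 1792 to 3406 CPM in TRAP and 329 to 558 CPM in pre-TRAP. That of mesenchyme markers was 52.6 to 257 CPM in TRAP and 469 to 748 CPM in pre-TRAP, and that of erythroid markers 249 to 863 CPM in TRAP and 3648 to 8445 CPM in pre-TRAP. Tested marker by marker, 7 of 8 otic epithelium markers (all but Oc90; median log2 fold change 1.64), 3 of 4 hair cell markers and 6 of 6 neuronal markers were higher in TRAP, and 6 of 6 mesenchyme, 5 of 5 erythroid and 3 of 3 endothelial markers were lower. The other 2 sets were split, with 1 higher and 3 lower of 5 skeletal muscle markers and 1 higher and 3 lower of 4 Schwann cell markers. The summed Schwann cell level was 104 ± 27.6 CPM in TRAP and 53.9 ± 15.9 CPM in pre-TRAP (SD). The highest mesenchyme sums among the TRAP libraries were those of TRAP mut replicate 6 (257 CPM), TRAP het replicate 5 (234 CPM), TRAP het replicate 3 (233 CPM) and TRAP mut replicate 4 (149 CPM), so results that rest on them are also given without them. The part of these cell-type differences in the results below was not tested, and in bulk libraries fewer cells of a type and less RNA per cell cannot be told apart.

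Ribosomal protein mRNAs took up a smaller share of TRAP libraries than of pre-TRAP libraries. The 85 genes together held 6.54% to 9.40% of all counts in the 16 TRAP libraries (median 7.31%), against 8.19% to 10.28% in the 8 pre-TRAP libraries (median 9.47%). By group, the share averaged 7.27 ± 0.574% in TRAP mut, 7.59 ± 0.950% in TRAP het (SD, n = 8 each), 9.31 ± 0.874% in pre-TRAP mut and 9.68 ± 0.347% in pre-TRAP het (SD, n = 4 each). The ranges overlapped at their edges, with TRAP het replicates 5 (9.40%) and 9 (8.39%) above the lowest pre-TRAP library. Without replicate 5 the TRAP het mean was 7.33%. Counts assigned to 295 ribosomal protein genes with pseudogene names followed the same order, at 5.43% to 7.62% in TRAP and 6.90% to 8.52% in pre-TRAP. The sources used here do not say how reads were divided between a gene and its pseudogenes.

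**Figure D1:**
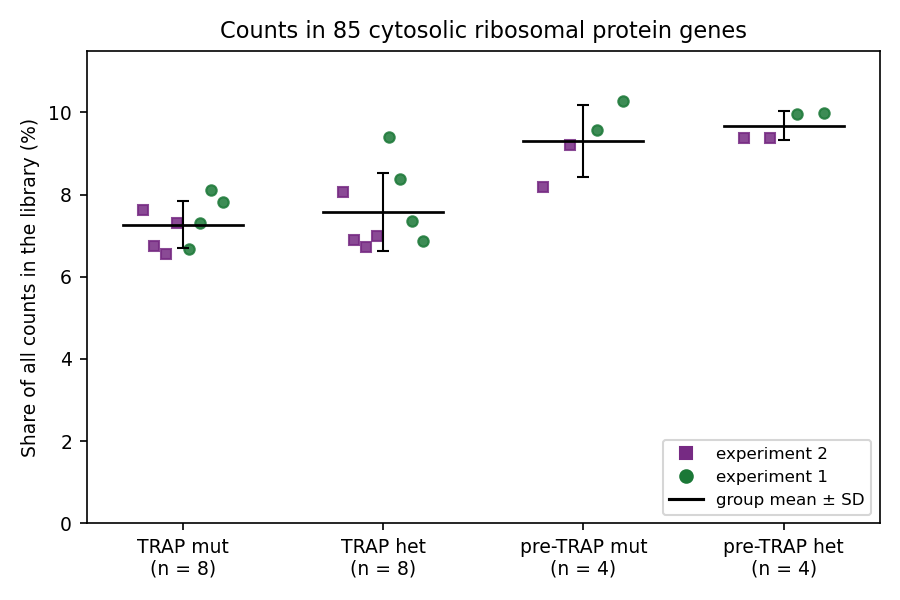
The vertical axis gives the share of all counts in a library that fell in the 85 cytosolic ribosomal protein genes, in percent; each point is 1 library, squares are experiment 2 and circles experiment 1, and black bars are group means ± SD. The TRAP groups averaged 7.27% and 7.59% and the pre-TRAP groups 9.31% and 9.68%, and the highest TRAP point (9.40%) is replicate 5 of TRAP het.

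The comparison of TRAP with pre-TRAP asks which ribosomal protein mRNAs were over- or under-represented on tagged ribosomes relative to the tissue. After scaling by the trimmed mean of M-values (TMM), 57 of the 84 members tested were lower in TRAP and 0 were higher (edgeR's quasi-likelihood test, Benjamini-Hochberg adjusted p under 0.05), whereas 31.2% of all genes tested were lower and 27.9% higher. At an unadjusted p under 0.05, 60 of 84 members passed, beside 15199 of all 24242 genes tested. DESeq2 called 58 members lower and 0 higher, and its count over all genes is not given here. The members' median log2 fold change was −0.36, against −0.01 over all genes, and 81 of 84 values were negative. The fall took in 34 of 49 large subunit members, 21 of 32 small subunit members and 2 of 3 P stalk members. Experiment 2 taken singly called 34 members lower (median −0.30), and so did experiment 1 (34, median −0.39). Shares over all genes in these smaller fits are not given here, so these counts are not set against other genes.

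Rpl10a, the large subunit protein whose tagged copy was the handle of the purification, fell together with the others. It was measured at 492, 602 and 999 CPM in TRAP (lowest, median and highest of 16), against 639, 797 and 1056 CPM in pre-TRAP (of 8). Most TRAP libraries lay below the lowest pre-TRAP library, and TRAP het replicate 5 lay near the highest. The log2 fold change was −0.45 ± 0.097 (SE; adjusted p = 0.000275), which is 1.36-fold lower. Set against the median of the other members in the same library, Rpl10a stood at −0.42 ± 0.108 log2 units in TRAP (SD, n = 16) and −0.35 ± 0.104 in pre-TRAP (SD, n = 8), with ranges of −0.56 to −0.24 in TRAP and −0.51 to −0.19 in pre-TRAP that largely overlapped. The files give a single value for Rpl10a, so transcripts of the endogenous gene and of the tagged copy were not separated.

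Among the P stalk genes, Rplp0, which anchors the stalk to the ribosome, had 1241, 1491 and 2458 CPM in TRAP, against 2134, 3072 and 4774 CPM in pre-TRAP (lowest, median and highest). Within each experiment every TRAP library lay below every pre-TRAP library; across experiments the highest TRAP libraries, from experiment 1, overlapped the lowest pre-TRAP libraries, from experiment 2. Rplp0 was 2.08-fold lower (log2 fold change −1.06 ± 0.105, SE; adjusted p = 2.11e-09). The stalk partners that bind it as dimers differed less: Rplp1 was lower by −0.55 ± 0.100 (adjusted p = 3.6e-05), and Rplp2 was at −0.20 ± 0.131 and was not called (adjusted p = 0.195).

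In the small subunit the leading gene was Rpsa, which encodes a protein of the subunit's back that is also known as the laminin receptor. Rpsa had 713, 939 and 1449 CPM in TRAP, against 1505, 2152 and 2795 CPM in pre-TRAP (lowest, median and highest). It was the only 1 of the 84 members for which every TRAP library lay below every pre-TRAP library, a pattern seen in 8.32% of all genes tested. No member had every TRAP library above every pre-TRAP library, which 6.33% of all genes did. The log2 fold change of Rpsa was −1.16 ± 0.087 (SE; adjusted p = 1.02e-11), or 2.24-fold lower, and it was between −1.19 and −1.12 when any 1 library was left out.

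Rps12 also fell in the small subunit, with 285, 389 and 585 CPM in TRAP, against 470.1, 671 and 813 CPM in pre-TRAP. Its groups overlapped at the edges, and the gene fell by 0.71 ± 0.116 on the log2 scale (SE; adjusted p = 7.57e-06). Rps2 had a slightly larger fall, with a log2 fold change of −0.75 ± 0.226 (adjusted p = 0.00575), on widely scattered levels of 28.0 to 268 CPM in TRAP and 42.8 to 487 CPM in pre-TRAP. Rps19, the gene most often mutated in the inherited anaemia Diamond-Blackfan, was lower by −0.64 ± 0.096 (adjusted p = 2.26e-06), and Rps20 by −0.59 ± 0.110 (adjusted p = 4.55e-05). Rps6, the subunit protein phosphorylated by S6 kinases, was at −0.19 ± 0.104 and was not called (adjusted p = 0.116).

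Among the larger falls of well-counted large subunit genes were those of Rpl12, at −0.67 ± 0.107 (SE; adjusted p = 6.06e-06), Rpl32 at −0.65 ± 0.125, Rpl13 at −0.64 ± 0.200 and Rpl4 at −0.59 ± 0.081 (adjusted p = 5.11e-07), all log2 fold changes. Rpl12 lies at the base of the P stalk beside Rplp0. Rpl12 had 251, 330.2 and 472 CPM in TRAP, against 417, 533 and 659.5 CPM in pre-TRAP (lowest, median and highest). Rpl4 had 791, 1406 and 2221 CPM in TRAP, against 1429, 2013 and 2997 CPM in pre-TRAP. Both overlapped across all libraries, but within each experiment every TRAP library of Rpl4 lay below every pre-TRAP library. That pattern held for 4 of 84 members, Rplp0 and Rpsa among them, which compares with 10.5% of all genes tested, and 0 members had the opposite one, which 8.29% of all genes had. Complete separation was therefore no more frequent among the members than among genes at large, although calls of a lower level were. Rpl5 and Rpl11, which with 5S RNA bind Mdm2 when ribosome assembly is disturbed, were lower by −0.42 ± 0.094 and −0.38 ± 0.096.

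**Figure D2:**
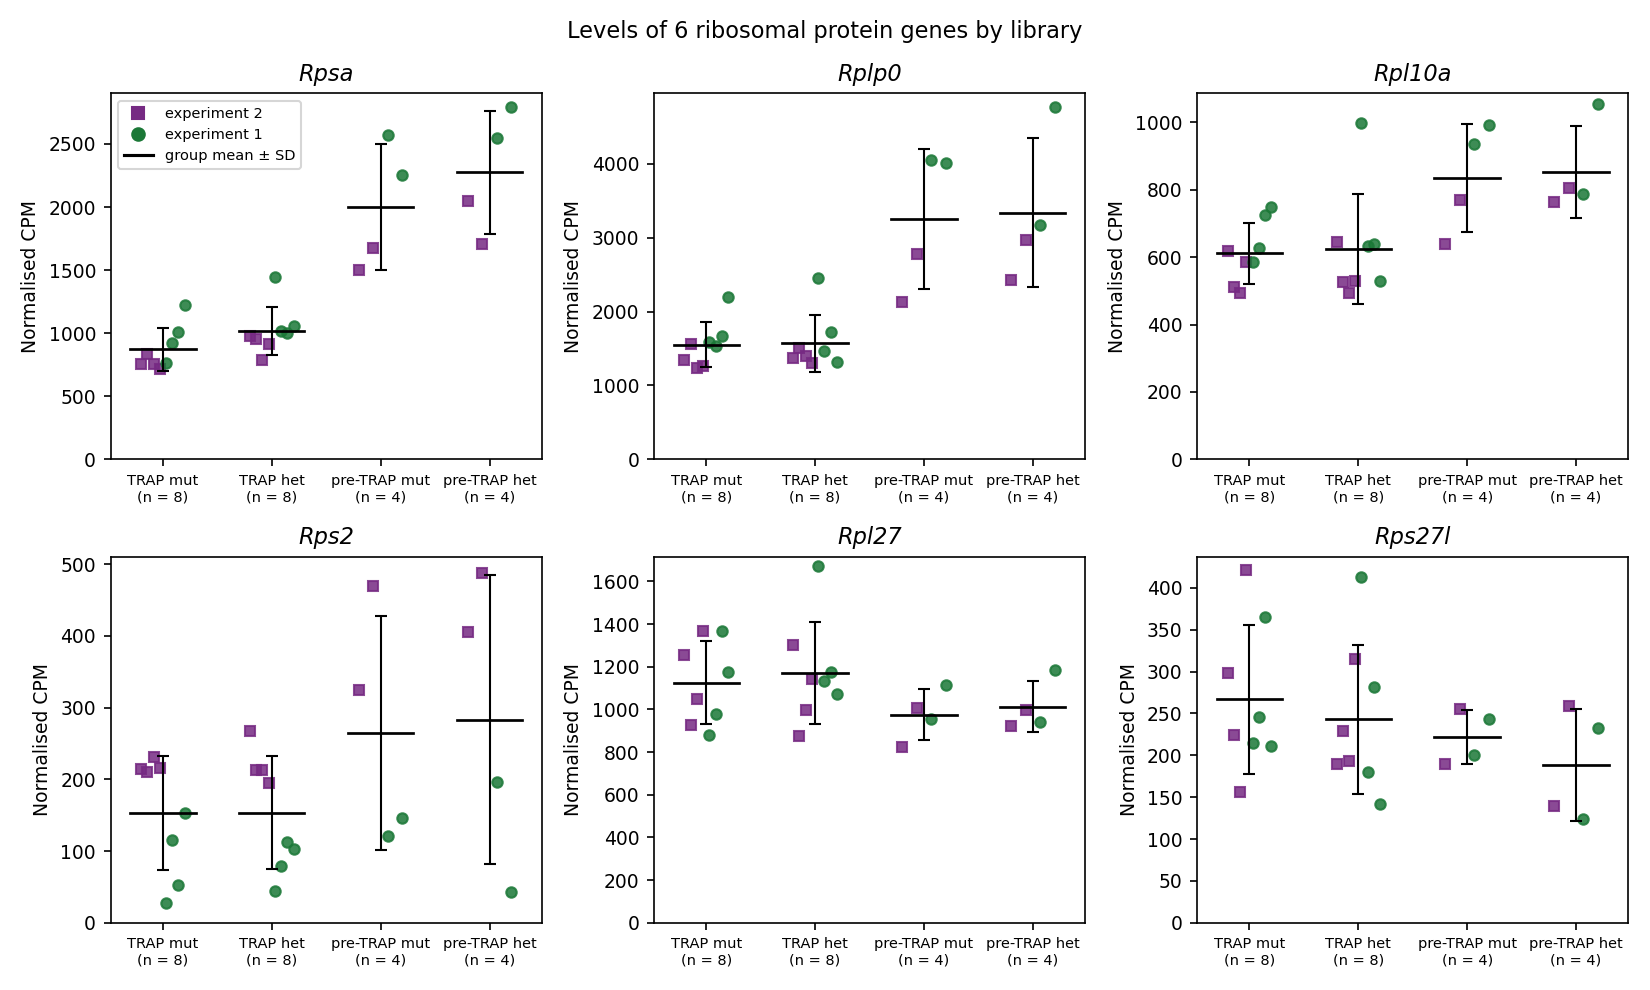
Normalised CPM of 6 ribosomal protein genes in each of 24 libraries, by group; each axis starts at 0, squares are experiment 2, circles are experiment 1, and black bars are group means ± SD. Rpsa and Rplp0 are low in both TRAP groups, Rpl10a has its highest TRAP value at 999 CPM, Rps2 divides by experiment with 28.0 to 153 CPM in experiment 1 of TRAP, and Rpl27 and Rps27l have no group apart.

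The 3 members with positive values did not pass the test. Rps27l, a paralog of Rps27 known as a p53 target, had 142, 226 and 422 CPM in TRAP and 124, 216 and 259 CPM in pre-TRAP (lowest, median and highest), with a log2 fold change of 0.32 ± 0.186 (adjusted p = 0.147). Rpl27 had 873, 1138 and 1672 CPM in TRAP and 825, 976 and 1185 CPM in pre-TRAP, with 0.21 ± 0.107 (adjusted p = 0.093). Rpl27 passed the test as higher when TRAP het replicates 3 and 5 and TRAP mut replicates 4 and 6 were left out (0.23, adjusted p = 0.0243), with library totals alone (0.25, adjusted p = 0.00788) and with scaling computed without the ribosomal protein genes (0.24, adjusted p = 0.0479). Rpl38, the gene mutated in Tail-short mice, was at 0.07 ± 0.130 (adjusted p = 0.648).

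The members that no comparison called number 16: Rpl10l, Rpl13a, Rpl18, Rpl23, Rpl27, Rpl29, Rpl30, Rpl38, Rpl3l, Rplp2, Rps13, Rps15, Rps21, Rps27l, Rps29 and Rps4l. Apart from the positive ones above and Rpl3l, which had too few counts to test, their log2 fold changes, TRAP over pre-TRAP, ran from −0.69 for Rpl10l to −0.01 for Rps15 (adjusted p = 0.976). Nearest to the threshold among them was Rpl13a, at −0.27 ± 0.119 (adjusted p = 0.0539). Rpl29, whose spread between libraries of one group and experiment was among the widest (SD 0.383 log2 units), was at −0.20 ± 0.144.

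The median log2 fold change, TRAP over pre-TRAP, was −0.33 for the 14 members with a C of a tract on an annotated start, of which 9 were called lower, and −0.39 for the 48 tested members with an entry and no such C there, of which 34 were called lower. Rpsa and Rplp0, which fell most among well-counted members, are in the second set, and Rpl38 is in the first. Split by a tract anywhere in the window, the medians lay in the opposite order. The median was −0.39 for the 42 tested members with a tract there, of which 29 were called lower. For the 20 members without one it was −0.36, and 14 were called lower. Both splits rest on annotated starts, and neither difference was tested, so they do not show that members without a tract fell more.

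Several members have a paralog with tissue-restricted or specialised expression, and these were read pair by pair. Rpl39l, a paralog of Rpl39 known from testis, had 1 to 21 counts per TRAP library and 13 to 35 per pre-TRAP library, or 0.211 ± 0.143 CPM in TRAP and 0.734 ± 0.194 CPM in pre-TRAP (SD, n = 16 and n = 8). Its log2 fold change, −1.80 ± 0.327 (adjusted p = 3.4e-05), was the most negative of all members and rests on these few counts. Rpl39 itself averaged 531 ± 140 CPM in TRAP and 666 ± 141 CPM in pre-TRAP and was lower by −0.32 ± 0.128 (adjusted p = 0.0368), a call lost in 13 of 24 fits that left out 1 library. Rpl10l, another testis paralog, had 1 to 12 counts in TRAP and 3 to 14 in pre-TRAP and was not called (−0.69 ± 0.357, adjusted p = 0.0998), and Rpl10 was lower by −0.26 ± 0.102 (adjusted p = 0.0281), a call lost in 4 of 24 fits. Rpl3l, known from striated muscle, had 0 to 4 counts in TRAP and 0 to 2 in pre-TRAP and was not tested, and Rpl3 was at −0.22 ± 0.116 (adjusted p = 0.109).

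Rpl22l1, which Rpl22 holds down in mouse cells, averaged 112 ± 34.8 CPM in TRAP and 161 ± 22.6 CPM in pre-TRAP (SD), a difference of −0.56 ± 0.137 log2 units (SE; adjusted p = 0.000975). Rpl22 averaged 393 ± 63.9 CPM in TRAP and 449 ± 41.3 CPM in pre-TRAP and had the smallest change of the called members, at −0.20 ± 0.085 (adjusted p = 0.0493), a call lost in 18 of 24 fits that left out 1 library. Rpl7l1 averaged 126 ± 28.2 CPM in TRAP and 173 ± 49.0 CPM in pre-TRAP and was lower by −0.46 ± 0.116 (adjusted p = 0.00118), and Rpl7 was at −0.16 ± 0.116 (adjusted p = 0.232). Rps4x, the X-linked gene, was lower by −0.46 ± 0.086 (adjusted p = 4.63e-05), and Rps4l, at 95.1 ± 19.2 CPM in TRAP and 101.5 ± 14.9 CPM in pre-TRAP, was at −0.09 ± 0.113 (adjusted p = 0.517). Rps27 was lower by −0.40 ± 0.123 (adjusted p = 0.00705), whereas its paralog Rps27l was among the positive values.

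Rpl32 and Rpl32l gave nearly equal log2 fold changes, −0.65 ± 0.125 and −0.63 ± 0.120, and so did Rpl6 and Rpl6l, at −0.20 ± 0.090 and −0.21 ± 0.093 (adjusted p = 0.0529 and 0.0603, neither called). Values of near-identical copies are uncertain because the sources do not give the handling of reads that match several genes.

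Both genotypes showed lower ribosomal protein levels in TRAP. In Fgf20-/- pools, 38 of 84 members were lower and 0 higher (24.1% and 21.8% of all genes), with a median log2 fold change of −0.34. In Fgf20+/- pools, 39 were lower and 0 higher (24.2% and 19.5% of all genes), with a median of −0.37. Leaving out 1 library took the Fgf20-/- count to 23 (without pre-TRAP mut replicate 24) or 24 (without mut replicate 22) and the Fgf20+/- count to 24 (without pre-TRAP het replicate 23). Experiments 2 and 1 taken singly gave 10 and 16 lower in Fgf20-/- and 18 and 10 in Fgf20+/- pools. For these single-experiment counts the shares over all genes are likewise not given, so they do not show a fall beyond that of other genes. Rpsa was at −1.18 ± 0.124 in Fgf20-/- and −1.14 ± 0.124 in Fgf20+/- pools, Rplp0 at −1.04 ± 0.148 in Fgf20-/- and −1.07 ± 0.148 in Fgf20+/- pools, and Rpl10a at −0.44 ± 0.137 in Fgf20-/- and −0.46 ± 0.137 in Fgf20+/- pools. Rps2, at −0.74 ± 0.319 in Fgf20-/- and −0.76 ± 0.319 in Fgf20+/- pools, was called in neither genotype taken alone. The test of the difference between genotypes called 0 of 84 members (0% of all genes), and DESeq2 called 0. At an unadjusted p under 0.05, 0 of 84 members passed, beside 302 of all 24242 genes tested. The difference between genotypes was −0.04 ± 0.180 log2 units for Rpsa and 0.02 ± 0.197 for Rpl10a.

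Fgf20 genotype was then compared within each kind of library. Among the 83 members tested in TRAP libraries, mut against het, 0 passed edgeR's quasi-likelihood test (0.0742% of all genes were called), and DESeq2 called 0. Only 1 of 83 members had an unadjusted p under 0.05, beside 813 of all 21577 genes tested. Log2 fold changes ran from −0.24 to 0.12 with a median of −0.07, against −0.02 over all genes, and 73 of 83 were negative. That sign rested on few libraries: without TRAP het replicate 5 the median was 0.01 with 41 negative, and without TRAP het replicates 3 and 5 and TRAP mut replicates 4 and 6 it was 0.04 with 22 negative. Taken singly, experiment 2 gave a median of 0.04 and experiment 1 a median of −0.15. The member with the unadjusted p under 0.05 was Rpsa, with 713 to 1221 CPM in TRAP mut (median 798) and 790 to 1449 CPM in TRAP het (median 986), largely overlapping ranges with a log2 fold change of −0.24 ± 0.110. Rpl10a was at −0.04 ± 0.118, with a median SE over the members of 0.13, which sets the precision of this comparison.

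In pre-TRAP libraries, mut against het, 0 of 83 members passed (0.00455% of all genes), and DESeq2 called 0. Only 1 of 83 members had an unadjusted p under 0.05, beside 1048 of all 21954 genes tested. The median log2 fold change was −0.08, against −0.03 over all genes, and values ran from −0.57 for the thinly counted Rpl39l to 0.29 for Rpl7l1. The member under 0.05 unadjusted was Rps15, with 598, 619, 428 and 495 CPM in pre-TRAP mut and 823, 698, 695 and 476 CPM in pre-TRAP het. Those values overlapped through the lowest het library, and the log2 fold change was −0.33 ± 0.149. With 4 pools per genotype these differences were not detectable beyond the spread between pools.

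The 2 experiments differed more than the genotypes did. In TRAP libraries, experiment 2 against experiment 1, 27 of 83 members were lower and 2 higher (8.81% and 14.1% of all genes), with a median log2 fold change of −0.21, against 0.02 over all genes. In pre-TRAP libraries 30 of 83 were lower and 2 higher (4.97% and 9.74% of all genes), with a median of −0.29, against −0.00 over all genes. The pre-TRAP count fell whenever 1 library was left out, to 14 without pre-TRAP mut replicate 18, 15 without mut replicate 20, 16 without mut replicate 22, mut replicate 24 or het replicate 17, and 18 without het replicate 21. The lower calls comprised 18 large subunit and 9 small subunit members in TRAP, and 18 large subunit, 11 small subunit and 1 P stalk member in pre-TRAP. The share of counts in all 85 genes was 7.11 ± 0.522% in experiment 2 and 7.74 ± 0.890% in experiment 1 of TRAP (SD, n = 8 each), and 9.03 ± 0.572% in experiment 2 and 9.95 ± 0.294% in experiment 1 of pre-TRAP (SD, n = 4 each). TMM factors averaged 1.09 ± 0.0489 in experiment 2 and 0.941 ± 0.0786 in experiment 1 of TRAP, and 1.07 ± 0.0385 in experiment 2 and 0.897 ± 0.0651 in experiment 1 of pre-TRAP (SD). Library totals alone moved the median of all genes to 0.18 in TRAP and 0.25 in pre-TRAP. With them, 17 members were lower and 5 higher in TRAP, and 13 lower and 3 higher in pre-TRAP. Shares over all genes with library totals alone, or without 1 library, are not given here. The counts from those fits are therefore not set against other genes.

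The members lower in experiment 2 overlapped between the 2 kinds of library, which the fits treat as separate samples. The matching overlap over all genes was not computed, so the overlap below is not shown to be particular to the members. Lower in both were 21 genes, which is 77.8% of the TRAP list and 70.0% of the pre-TRAP list: Rpl3, Rpl4, Rpl6, Rpl7a, Rpl8, Rpl9, Rpl14, Rpl15, Rpl17, Rpl19, Rpl21, Rpl35, Rpl41, Rps3, Rps6, Rps7, Rps9, Rps14, Rps18, Rps19 and Rps23. Rps19 had 1183 to 1658 CPM in experiment 2 (median 1464) and 1984 to 3686 CPM in experiment 1 (median 2430) of TRAP. In pre-TRAP, Rps19 had 1930, 2303, 2129 and 2346 CPM in experiment 2 and 4138, 4356, 3649 and 4414 CPM in experiment 1. The experiments did not overlap in either kind of library, and the log2 fold changes were −0.79 ± 0.121 in TRAP (adjusted p = 5.27e-05) and −0.92 ± 0.132 in pre-TRAP (adjusted p = 0.000477).

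Rps14, the small subunit gene whose loss marks the 5q- syndrome of the bone marrow, behaved alike. It had 1101 to 1686 CPM in experiment 2 (median 1440) and 1905 to 3546 CPM in experiment 1 (median 2374) of TRAP, and 1372, 1796, 1637 and 1738 CPM in experiment 2 and 2916, 3544, 2601 and 3757 CPM in experiment 1 of pre-TRAP. Every library of experiment 2 lay below every library of experiment 1 of its kind, with log2 fold changes of −0.73 ± 0.125 (adjusted p = 0.000162) and −0.96 ± 0.156 (adjusted p = 0.00112). In the large subunit the falls in TRAP were led by Rpl35 (−0.82 ± 0.137), Rpl4 (−0.80 ± 0.105) and Rpl3 (−0.75 ± 0.128), which stood in pre-TRAP at −0.75 ± 0.137, −0.81 ± 0.129 and −0.87 ± 0.191. Rps7 and Rpl14, both at −0.68 ± 0.133 in TRAP, were also among the larger falls, with Rps18, Rpl23a and Rps6 at −0.61, −0.59 and −0.58. In pre-TRAP, Rps18 was lower by −0.87 ± 0.157, Rps6 by −0.82 ± 0.163, Rpl14 by −0.66 ± 0.184, Rps9 by −0.64 ± 0.145, Rpl15 by −0.63 ± 0.154 and Rplp0 by −0.63 ± 0.159. Leaving out 1 pre-TRAP library at a time, the calls of Rpl14 and Rps7 were lost in 6 of 8 fits, that of Rpl6 in 7, that of Rplp0 in 3 and that of Rpl15 in 2.

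**Figure D3:**
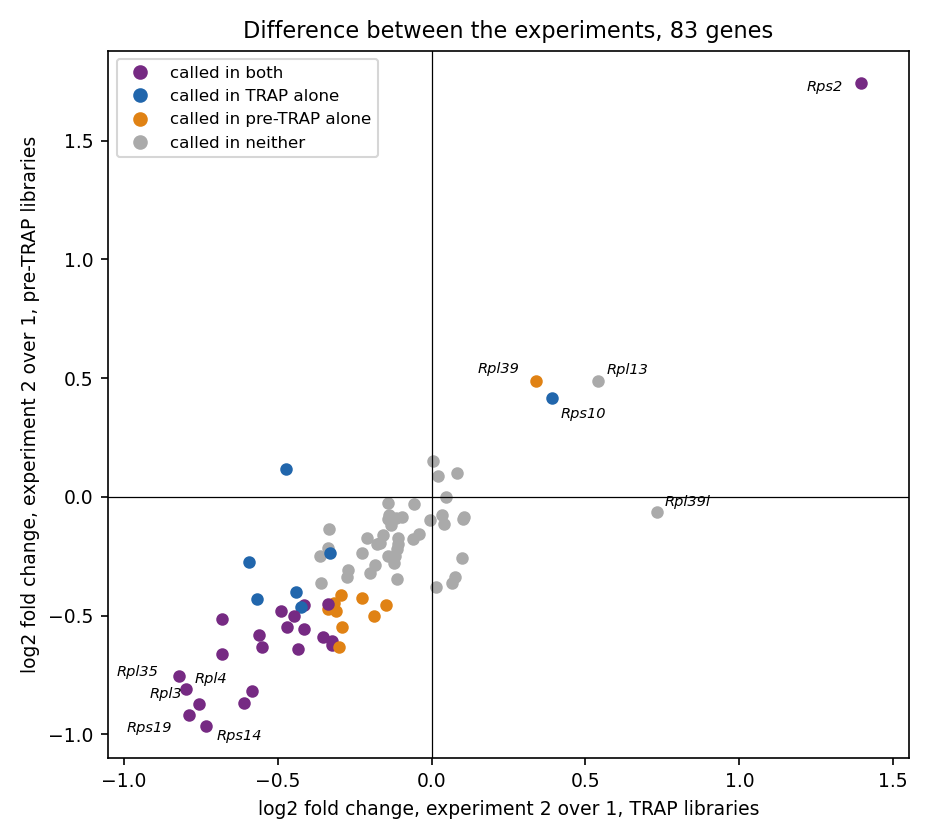
Log2 fold change between the experiments, experiment 2 over experiment 1, of 83 ribosomal protein genes; the horizontal axis is from TRAP libraries and the vertical axis from pre-TRAP libraries, and colour gives where the adjusted p was under 0.05. Most points lie left of and below 0, and Rps2 lies alone at 1.40 in TRAP and 1.74 in pre-TRAP.

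Rps2 went the other way. It had 195 to 268 CPM in experiment 2 (median 214) and 28.0 to 153 CPM in experiment 1 (median 91.3) of TRAP, and 324, 469, 405 and 487 CPM in experiment 2 and 121, 146, 196 and 42.8 CPM in experiment 1 of pre-TRAP. No library of experiment 1 reached the lowest library of experiment 2 in either kind. The log2 fold changes were 1.40 ± 0.251 (adjusted p = 0.00029) and 1.74 ± 0.342 (adjusted p = 0.00409). Within a group and experiment, Rps2 also varied more than any other member counted at this depth, with an SD of 0.726 log2 units, followed by Rpl13 (0.567) and Rps27l (0.503), while Rpl7a (0.136), Rpl22 (0.151) and Rpl4 (0.155) varied little. The second higher call was Rps10 in TRAP (0.39 ± 0.121, adjusted p = 0.0229) and Rpl39 in pre-TRAP (0.49 ± 0.147, adjusted p = 0.0419); in the other kind of library they stood at 0.42 ± 0.154 and 0.34 ± 0.160 and were not called. The Rps10 call was lost without TRAP het replicate 1, TRAP mut replicate 2 or TRAP mut replicate 10, and the Rpl39 call in 6 of 8 fits without 1 pre-TRAP library. Rpl39l, at 0.73 in TRAP, and Rpl13, at 0.54 in TRAP and 0.49 in pre-TRAP, did not pass.

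Whether the TRAP against pre-TRAP difference itself changed between the experiments was tested as an interaction. It called 0 of 84 members (0.0371% of all genes), and DESeq2 called 0. Only 1 of 84 members had an unadjusted p under 0.05, beside 1157 of all 24242 genes tested. That member was Rpl22l1, at −0.62 ± 0.249 log2 units (unadjusted p = 0.0188).

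Genes that work with the ribosomal proteins were read from lists of other ribosome-related genes, TRAP against pre-TRAP. Their counts stand beside 31.2% lower and 27.9% higher among all genes tested. Of 5 ribosomal proteins outside the naming pattern, Rps3a1 (−0.51 ± 0.135) and Rack1 (−0.45 ± 0.085) were lower, and Fau (0.01) and Rpl36al (0.09) were among those not called. Of 27 other 5′ TOP mRNAs and translation factors, 14 were lower and 6 higher (median −0.24). The poly(A)-binding protein Pabpc1 had 266 ± 49.2 CPM in TRAP and 528 ± 191 CPM in pre-TRAP (SD) and was lower by −0.96, the nucleolar chaperone Npm1 by −0.79 and the elongation factor Eef2 by −0.67, while the initiation factors Eif4a2 (0.51), Eif4g2 (0.43) and Eif5a (0.30) were higher. Of 38 ribosome biogenesis genes, 12 were lower, led by Utp20 (−0.95), the RNA polymerase I subunit Polr1a (−0.56) and Heatr1 (−0.55), and 7 were higher, led by Rrn3 (0.55), Polr1e (0.43) and Nhp2 (0.39), with a median of −0.05. Lower calls among the biogenesis genes were therefore near the share of all genes.

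Of 18 genes that control ribosomal protein synthesis, 9 were lower and 4 higher (median −0.26). Among them the mTOR inhibitor Deptor was lower by −1.89, the translation repressor Eif4ebp1 by −1.37 and the transcription factor Myc by −1.01, with 13.2 ± 3.00 CPM in TRAP and 26.9 ± 7.59 CPM in pre-TRAP. Its relatives Mycl (1.94) and Mycn (1.47) were higher, as was Larp1b (1.26), and Larp1 itself was lower by −0.30 ± 0.102. Mitochondrial ribosomal proteins, which are encoded in the nucleus and build the separate ribosome of the mitochondrion, moved the opposite way from the cytosolic ones: 59 of 77 tested were higher and 2 lower, with a median of 0.43. Mrps6 (1.24), Mrpl34 (1.15) and Mrps23 (0.88) were the largest rises, and Mrps27 (−0.34) and Mrpl17 (−0.24) were the lower ones. No gene of these 5 lists passed the test between Fgf20 genotypes in either kind of library.

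**Figure D4:**
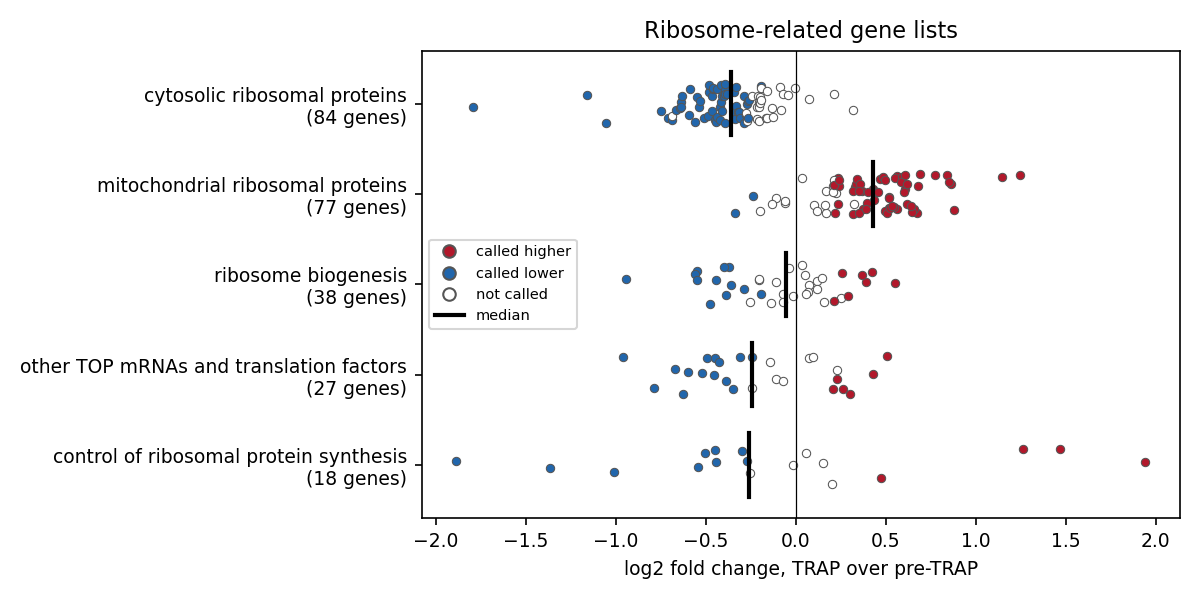
Log2 fold change, TRAP over pre-TRAP, of the genes tested in 5 lists, 1 point per gene, coloured by its call, with the list median as a black bar. The cytosolic ribosomal proteins have a median of −0.36 and the mitochondrial ribosomal proteins of 0.43, and the other lists lie between.

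Between the experiments the same lists gave mixed calls, to be read beside 8.81% lower and 14.1% higher among all genes in TRAP and 4.97% lower and 9.74% higher in pre-TRAP. In TRAP, experiment 2 against experiment 1, 13 of the 27 other 5′ TOP mRNAs and translation factors were lower and 3 higher, and 14 of the 38 biogenesis genes were lower and 1 higher. In pre-TRAP the counts were 8 lower and 3 higher, and 6 lower and 1 higher. Mitochondrial ribosomal proteins had 20 lower and 9 higher of 77 in TRAP and 11 lower and 8 higher in pre-TRAP, and the control genes had 3 higher in TRAP and 2 in pre-TRAP, with 0 lower. Of the cell markers, 1 of 6 neuronal markers was lower in experiment 2 in each kind of library and no erythroid, mesenchyme, hair cell or endothelial marker was called. In TRAP, 2 of 5 skeletal muscle, 1 of 3 Schwann cell and 1 of 8 otic epithelium markers were higher in experiment 2, and in pre-TRAP 1 of 8 otic epithelium markers was lower. The summed otic epithelium level in pre-TRAP was 365 to 391 CPM in experiment 2 and 524 to 814 CPM in experiment 1, without overlap. The roof marker Oc90 alone made up most of this sum in pre-TRAP. The summed neuronal level in pre-TRAP did not overlap either, at 329 to 443 CPM in experiment 2 and 484 to 558 CPM in experiment 1. The part of these markers in the experiment difference was not tested.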

How the data were processed

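RNA from TRAP and pre-TRAP libraries of mouse ventral otocyst was analysed from the gene counts deposited by the authors, whole numbers per Ensembl gene with no normalization in the table. Per the submitters' processing notes, STAR, DESeq2 and build GRCm38.p5 were used; versions, annotation, counting tool, strand setting and the treatment of multi-mapping reads are not stated. Per the labels' protocols, a Picopure kit was used for RNA and a SMARTer kit for libraries.

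Counts were scaled with TMM and tested with edgeR 4.0.16 in R 4.3.3 (quasi-likelihood F test, genes kept by filterByExpr with a minimum count of 10, Benjamini-Hochberg adjusted p under 0.05 over all genes). TRAP was set against pre-TRAP over 24 libraries with experiment as a covariate (24242 genes), genotype and experiment within 16 TRAP (21577 genes) or 8 pre-TRAP libraries (21954 genes) with each other as covariate. Standard errors are of the log2 fold change. Levels are TMM-normalised CPM, and log2 levels add 0.5 CPM. Levels were compared between libraries and not between genes, since transcript lengths were not used here. DESeq2 1.42.0, other scalings, no filter, no covariate, single experiments and each library left out were the alternatives. The procedure was tested on simulated data. Figures used matplotlib 3.10.9 and Python 3.11.15.

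The members and lists were chosen with earlier results of these data known. Named genes are Rpl10a, paralog pairs, members never called, the 5 with the highest mean level, and up to 10 largest rises and falls per comparison; from other lists, up to 3 each way. Genes given with values outside this rule include Rplp1, Rpl5, Rpl11, Rpl7a, Larp1, Fau and Rpl36al. Values of some genes that meet this rule are not reported here. Leaving out TRAP het replicates 3 and 5 and TRAP mut replicates 4 and 6 together was added after seeing the data. The 68 pairs of libraries within a group differed by more than counting noise (chi-square from 26.3 to 261 times its degrees of freedom), and no library was taken for a duplicate.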

Additional observations from a re-analysis of the deposited data

Results flagged for a closer look

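Within groups of 4 to 8 libraries, 211 sets of values of the named genes were screened for a highest or lowest library far from the rest, and 23 had one; chance gives about 1 in 20. Most came from a single library, TRAP het replicate 5, which was flagged as the highest of the 8 TRAP het libraries for 17 members: Rpl10a (999 CPM), Rpl22l1 (213), Rpl32 (2936), Rpl32l (407), Rpl7 (3263), Rps27 (1729), Rps19 (3686), Rplp0 (2458), Rpl30 (553), Rpsa (1449), Rps20 (1095), Rps7 (2266), Rpl14 (3419), Rpl23a (536), Rps6 (2440.5), Rps9 (3182) and Rpl15 (1841 CPM). It was also the highest TRAP het library for further members that the screen did not flag, among them Rps14 (3546 CPM) and Rps18 (3127 CPM). Not all members went this way: it was the lowest TRAP het library for Rpl13 (443 CPM) and Rps2 (44.9 CPM). The same library had the largest share of counts in ribosomal protein genes among TRAP libraries (9.40%) and the lowest TMM factor of the 24 libraries (0.801). Without it, 62 members were lower in TRAP than in pre-TRAP, against 57 with it. Elsewhere, Rpl10a was highest in pre-TRAP het replicate 21 (1056 CPM), Rplp0 in TRAP mut replicate 16 (2198 CPM) and Rpl23 in TRAP mut replicate 13 (1169 CPM), and Rpl29 was lowest in TRAP mut replicate 8 (113 CPM). Rpl3l, with 0 to 4 counts per library, was highest in TRAP het replicate 3 (0.112 CPM) and TRAP mut replicate 10 (0.0775 CPM).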

How the results depend on the processing

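The values that answer a comparison are mostly counts of called members. Under the alternatives other than leaving out 1 library, 161 of these values stayed near their main value, and 21 moved. The 161 include counts of 0 that stayed at 0, as between genotypes, so this total says little about the other results. Of the values of single members, 673 kept their direction and call, 58 lost the call, 12 gained it and 10 changed sign without being called either way. For TRAP against pre-TRAP, library totals alone, scaling without the ribosomal protein genes, and leaving out TRAP het replicates 3 and 5 and TRAP mut replicates 4 and 6 each gave 1 member higher, Rpl27, and either experiment alone gave 34 lower. In Fgf20-/- pools the lower calls were 21 without the experiment covariate, 10 in experiment 2 and 16 in experiment 1, with 1 higher without those 4 libraries; in Fgf20+/- pools they were 21, 18 and 10. Between experiments, library totals alone gave 5 higher and 17 lower in TRAP and 13 lower in pre-TRAP. No filter gave 1 higher in TRAP. DESeq2's size factors gave 1 higher in pre-TRAP, and upper-quartile scaling 1 higher and 17 lower. Shares over all genes under these alternatives are not given here, so the counts are not set against other genes. Against the mean in place of the median of the other members, Rpl10a stood at 0.0599 in TRAP and 0.14 in pre-TRAP. Signs changed for Rps15 (0.0244 with library totals alone, 0.0230 with scaling without the ribosomal protein genes, 0.00162 with no filter, 0.23 in experiment 2 alone, 0.0546 without the 4 libraries), for Rpl38 (−0.0305 in experiment 1 alone) and, in experiment 2 alone, for Rps9 (0.00829), Rplp2 (0.0483), Rpl18 (0.0233) and Rps4l (0.0139); the cause was not tested.

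Leaving out 1 library at a time, members lower in TRAP numbered 48 (without pre-TRAP mut replicate 22) to 62, in Fgf20-/- pools 23 to 41 and in Fgf20+/- pools 24 to 50. Between experiments they gave 1 to 3 higher and 21 to 32 lower in TRAP, and 1 to 2 higher and 14 to 27 lower in pre-TRAP. Rpl10a ranged from −0.48 to −0.42 and Rps15 from −0.0665 to 0.0810. No paired analysis was possible because the replicate numbers in the labels are unique to each library and are not shared between groups. Rpl3l and Rpl10l had too few counts to limit a difference, and Rpl39l rests on 1 to 35 counts per library.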
